A study of Rattus norvegicus with 9 samples.

Results

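The comparison set 3 arrays of ureteric buds grown with heregulin (HRG) against the mean of the BSN and PTN group means, 3 arrays each, so all 9 of the 9 arrays of the series entered it. Every sample held 3 ureteric buds isolated from Sprague-Dawley rat embryos at embryonic day 13 and pooled as 1 sample and grown for 4 days on Transwell filters in a gel made of equal parts (50% each) of type 1 collagen and Matrigel low in growth factors at 37 °C and 5% CO2. All media contained FGF1 at 250 ng/ml and GDNF at 125 ng/ml. BSN cultures also received conditioned medium from a cell line of metanephric mesenchyme, HRG cultures human recombinant heregulin alpha at 500 ng/ml, and PTN cultures pleiotrophin purified from that conditioned medium at approximately 3 µg/ml. No group received FGF1 and GDNF alone, so each difference is between additions and not from a base medium. The series title groups BSN and PTN as branching cultures against non-branching HRG, while the PTN sample descriptions call those buds non-branching too. The groups are therefore named here by medium.

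The ureteric bud is the epithelial outgrowth of the nephric duct that invades the kidney mesenchyme and branches repeatedly. Its tips carry Ret, the receptor for GDNF, and proliferate, while its trunks mature into collecting duct that handles water, salt and urea, and into the urothelium of the pelvis and ureter. Heregulin is a neuregulin that binds ErbB3 and ErbB4, which signal with ErbB2. Pleiotrophin is a heparin-binding growth factor.

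Signals are in GCOS units, the linear intensity of a probe set on one array. Differences are given as log2(signal + 16), HRG minus the mean of BSN and PTN unless another pair is named, with the standard error (SE) of the fit, and folds are on the same scale. Adjusted p is limma's moderated test with Benjamini-Hochberg adjustment over all 15866 probe sets that are not controls. A probe set is called higher or lower when that adjusted p was under 0.05 and HRG differed in the same direction from BSN and from PTN. Where a group's mean was dim, under the average 40th percentile of its own arrays, signals are given without a fold or log2 difference, because such a fold depends on the added 16. In these bulk samples fewer cells of a type and less RNA per cell cannot be told apart.

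Among the genes that moved furthest were a tetraspanin and an epidermal envelope protein, which rose in HRG, and a thyroid hormone-binding protein and a Wnt pathway transcription factor, which fell. Crym, the thyroid hormone-binding mu-crystallin, read 2302, 2132 and 1417 on the HRG arrays, against 21064, 34694 and 32643 in BSN and 29769, 32326 and 44714 in PTN. The HRG arrays lay far below all 6 others, a 16.5-fold fall (log2 -4.04 ± 0.21, adjusted p = 7.87e-07). Tspan8, a tetraspanin of epithelial membranes, read 16914, 19118 and 14446 in HRG, 1679, 1070.3 and 1092 in BSN and 1132, 1539.9 and 1748 in PTN. It rose 12.3-fold (log2 3.62 ± 0.18, adjusted p = 7.87e-07), with no overlap between HRG and the other arrays.

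Tcf7 encodes TCF1, a DNA-binding partner of beta-catenin. Its signals were 456, 463 and 377 in HRG, 5503, 5347 and 4934 in BSN and 2405, 2432 and 1845 in PTN, so all 3 groups were apart, with HRG lowest (adjusted p = 3.88e-07). Wnt4, a Wnt ligand, had 2449, 2164 and 1824 in HRG, 174, 377 and 497 in BSN and 510.2, 52.4 and 228 in PTN. Every HRG array was above the other 6, which lay at dim signals that varied widely within a medium (adjusted p = 0.00386).

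Promoter windows from RefSeq (build GRCr8, 250 bases before to 50 after each gene's start, 27457 genes) were searched on both strands for the AP-1 motif TGANTCA and the TCF/LEF motif CTTTGAT, which do not overlap in the windows shown. Windows were found for 10 of the 13 most raised genes and for 10 of the 13 most lowered genes described further on. AP-1 letters stood in 3 of the raised 10 (Sprr1a, Mal and Plet1), in 1 of the lowered 10 (Gja1) and in 7.33% of all windows. The TCF/LEF letters stood in none of the raised 10, in Tcf7 among the lowered 10, and in 3.62% of all windows. Sprr1a, a raised gene, and Tcf7, a lowered one, are shown because they hold a match, a choice made after the matches were seen. Both lie on the minus strand, Sprr1a at chr2:180752616-180752875 and Tcf7 at chr10:36954270-36954529, and 260 bases are printed 5′ to 3′, ending 10 bases after the start. Capitals mark the matches, which begin 147 and 117 bases before the start in Sprr1a and 4 bases before it in Tcf7. These matches are descriptions of letters and not of bound sites.
Sprr1a promoter: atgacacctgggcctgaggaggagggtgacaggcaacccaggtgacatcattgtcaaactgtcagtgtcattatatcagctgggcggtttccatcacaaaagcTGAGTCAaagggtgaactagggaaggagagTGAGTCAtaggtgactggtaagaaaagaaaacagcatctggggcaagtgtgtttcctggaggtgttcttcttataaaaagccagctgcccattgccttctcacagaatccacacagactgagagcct
Tcf7 promoter: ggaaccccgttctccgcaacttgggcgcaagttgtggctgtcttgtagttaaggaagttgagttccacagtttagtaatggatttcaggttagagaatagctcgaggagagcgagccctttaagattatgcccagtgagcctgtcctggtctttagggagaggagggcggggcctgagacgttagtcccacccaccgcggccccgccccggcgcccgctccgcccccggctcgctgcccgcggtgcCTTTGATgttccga

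Of the 15866 probe sets, 874 were higher and 934 lower in HRG than the mean of the other media, together 11.4%. Nearly all of them lay on the same side of each medium: 857 were higher than both (5.4%) and 909 lower than both (5.73%), while 42 were above one and below the other. These 1766 probe sets are the calls of the text. Unadjusted p was under 0.05 for 3798 probe sets. By gene, with the brightest probe set standing for each of 10411 genes, 645 were higher (6.2%) and 689 lower (6.62%). At 2-fold or more from the mean of the media, 239 probe sets were higher and 345 lower.

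A call in the mean of 2 media can rest mainly on one of them. Of the 1766 calls, 754 also passed against BSN and against PTN separately, 653 passed against PTN alone, 296 against BSN alone and 63 against neither. The probe sets that passed against both were 347 higher (2.19%) and 407 lower (2.57%). At least 4-fold differences from each medium were seen for 37 higher and 44 lower probe sets. The difference was the larger one against PTN in 545 of the 857 higher and 557 of the 909 lower calls. Comparisons with BSN and with PTN share the 3 HRG arrays, so their values are given side by side and not correlated.

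**Figure D1:**
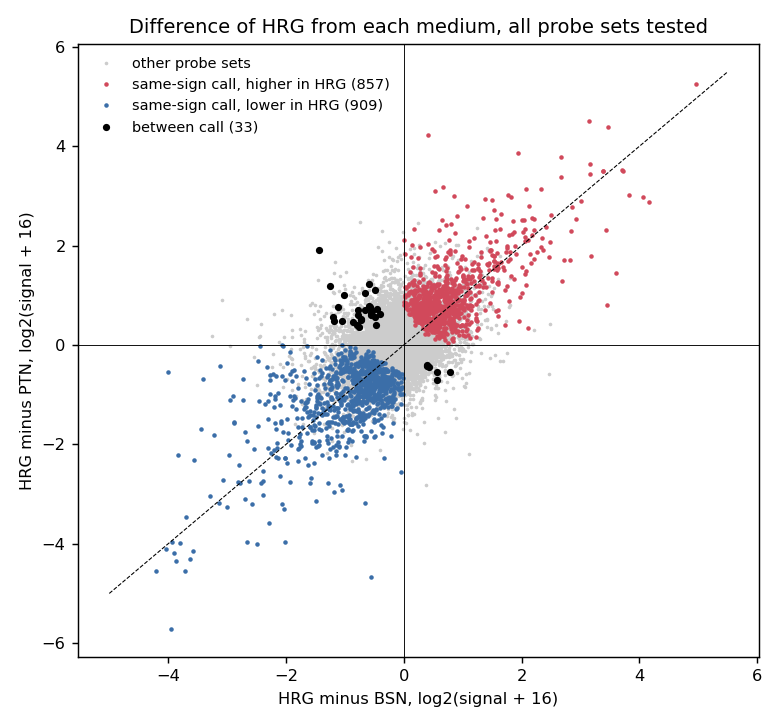
Each point is 1 of 15866 probe sets, with its log2(signal + 16) difference HRG minus BSN on the x axis and HRG minus PTN on the y axis. Red and blue mark the 857 higher and 909 lower calls (same sign against both media), black the 33 probe sets where HRG lay between the media past the threshold, and the dashed line equal differences. Both axes share the HRG arrays, so an upward slope is built into the plot.

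Keratin 7 and aquaporin 2 show what a call in the mean hides, and were picked after their values were seen. Krt7, a keratin of simple epithelia, read 11109, 10299 and 9382 in HRG, 11229, 12252 and 13299.7 in BSN and 3545, 1926 and 2031 in PTN. HRG was above the mean of the media (adjusted p = 0.0058) and yet not above BSN. Aqp2, the vasopressin-regulated water channel of the collecting duct, read 219, 167 and 165 in HRG, 158, 108 and 151 in BSN and 1685, 720.1 and 2189 in PTN. It was high only in PTN among the 3 media, and HRG was below the mean of the others (adjusted p = 0.0358) without being below BSN.

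On the arrays, 1026 probe sets had all 3 HRG signals above the other 6 (6.47%) and 984 had all 3 below (6.2%). Of the 1766 calls, 1397 were separate in this way. An exact rank-sum test of 3 arrays against 6 can give no two-sided p under 0.0238. The 2% trimmed mean of every array was 2500.48 to 2500.58, and arrays correlated at 0.959 to 0.978 within a medium and 0.941 to 0.963 between media over probe sets. RNA had been amplified in 2 rounds, and the 3′/5′ ratio of the actin control probe sets was 18.6 to 29.6 in HRG, 28.0 to 37.8 in BSN and 15.3 to 18.1 in PTN, and that of GAPDH 2.01 to 3.49, 3.75 to 5.83 and 2.97 to 6.85. The part of these ratios in the calls was not tested. The median log2 difference of all probe sets was 0.01 for HRG minus the mean of the media. For PTN minus BSN it was -0.16, against 0.003 after quantile normalization. Leaving out 1 HRG array reduced the higher calls from 857 to 538 without HRG 1, 535 without HRG 2 and 510 without HRG 3, and the lower calls from 909 to 581 without HRG 3. With the 6 other arrays taken as 1 group, so that the spread includes the difference between BSN and PTN, 422 higher and 467 lower calls were left.

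Genes with a mean signal above the median of all probe sets and no overlap of HRG with the other arrays were ranked by their difference from the nearer medium, which leaves dim genes such as Wnt4, Wnt5b and Dcx to the gene groups. The 13 that rose furthest among them combined collecting duct transporters, membrane proteins and an envelope protein of stratified epithelia. Sprr1a, a cornified envelope precursor, read 27178, 22411 and 15845 in HRG, 765, 474 and 826 in BSN and 788, 417 and 477 in PTN. It was in the dim range in both other media and among the brighter probe sets in HRG (adjusted p = 6.3e-07). Akap12, a scaffold that anchors protein kinase A, read 8103, 8324 and 9636 in HRG, 734, 835 and 879 in BSN and 699, 636 and 939.9 in PTN. This was a 10.9-fold rise with little spread in any group (log2 3.45 ± 0.14, adjusted p = 2.91e-07), while a dimmer Akap12 probe set was not called.

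Transporters of the mature collecting duct followed. Aqp3, a basolateral water and glycerol channel, read 7894, 10236 and 10875 in HRG, 565, 409 and 598 in BSN and 1006, 1066 and 1971 in PTN. Its HRG arrays were above all others, and PTN was above BSN as well (adjusted p = 2.95e-06 for HRG and 0.00874 for PTN against BSN). Slc14a2, a urea transporter, read 4170.3, 3940.0 and 3794 in HRG, 495, 451 and 194 in BSN and 947, 918 and 548 in PTN (adjusted p = 7.49e-05). Of its 5 probe sets 3 were called higher and 2 were not called. The probe set shown is not the brightest of them, which was called higher with a rise of less than 2-fold. Mal, a proteolipid of apical membrane traffic, read 3026, 3336 and 2994 in HRG, 619.7, 583 and 448 in BSN and 578, 888 and 763 in PTN (adjusted p = 1.44e-05).

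The other raised genes of this set were of mixed function. Plet1, a surface protein of epithelial progenitors, read 5847, 3733 and 5114 in HRG, 805, 582 and 501 in BSN and 692, 823 and 963 in PTN (adjusted p = 9.42e-06). Anxa4, a calcium-dependent membrane-binding annexin, read 3625, 5368 and 4992 in HRG, 930.0, 1327 and 771 in BSN and 714, 1046 and 1010.3 in PTN, a 4.79-fold rise, and its brighter probe set rose by a log2 of 1.35. Il17re, a receptor for interleukin 17C, rose 5.17-fold, to 6499, 5141 and 4195 from 1315, 994 and 1058 in BSN and 1107, 871 and 712 in PTN. Its other probe set rose 1.78-fold (adjusted p = 0.0152) and did not pass against BSN. On the probe sets with array values given, none of these had an HRG array inside the range of the others.

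Tc2n, a protein with C2 domains, read 23597, 23224 and 21609 in HRG, 5678, 4934 and 5031 in BSN and 2629, 3993 and 3317 in PTN, a 5.51-fold rise with BSN above PTN (adjusted p = 0.013 for PTN against BSN). The remaining 3 were Tcim (4.57-fold, adjusted p = 1.5e-05), C13h1orf116 (4.39-fold, adjusted p = 2.95e-06) and Lurap1l (3.82-fold, adjusted p = 5e-05). Ranked by the smaller of the differences from BSN and PTN, the last gene inside the 13 was Lurap1l with a log2 of 1.88, and the next outside were Krt19 with 1.88, Vcam1 with 1.87 and S100a6 with 1.86.

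The 13 genes of that ranking that fell furthest included receptors of the bud tip, transcription factors, matrix genes and a gap junction protein. Ret read 1112, 851 and 790.1 in HRG, 11483, 15204 and 13848 in BSN and 19681, 18578 and 18009.6 in PTN. The fall was 17.2-fold (log2 -4.10 ± 0.13, adjusted p = 6.25e-08), with GDNF added at the same concentration to every medium. Cxcr4, the receptor for the chemokine CXCL12, read 589, 733 and 709 in HRG, 8147, 8513 and 8019 in BSN and 14136, 9821 and 12954 in PTN (adjusted p = 6.25e-08). Hhex, a homeobox transcription factor, read 295, 334 and 311 in HRG, 2369, 1869.7 and 1959 in BSN and 4931, 5117 and 5238 in PTN. For Cxcr4 and Hhex HRG was in the dim range and PTN the highest medium, with adjusted p for PTN against BSN of 0.0288 and 0.000397.

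Matrix genes formed another set among the 13. Col2a1, a fibrillar collagen best known from cartilage, read 362, 317 and 34.5 in HRG, 1942, 2855 and 2516 in BSN and 6013, 3364 and 3981 in PTN. The third HRG array was lower than the other HRG arrays by an order of magnitude (adjusted p = 0.000483). The other Col2a1 probe set, whose HRG mean was dim too, had mean signals of 659 in HRG, 987 in BSN and 1029.5 in PTN and passed narrowly (adjusted p = 0.0499), without passing against each medium. Col9a1, a collagen that decorates fibrils, read 1873, 2053 and 1512 in HRG, 8511, 9097 and 9076 in BSN and 22412, 22285 and 20676 in PTN, a 7.68-fold fall with 3 separate groups. Lama4, a laminin alpha chain of basement membranes, read 457, 222 and 67.5 in HRG, 2229, 3020.0 and 2624 in BSN and 4865, 3569 and 4128 in PTN (adjusted p = 0.000113).

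Gja1, which encodes connexin 43, read 2625, 1913 and 1313 in HRG, 10927, 10092 and 9318 in BSN and 10493, 14001 and 15082 in PTN, a 6.07-fold fall, with a pair of dimmer probe sets not called. Marchf11, a ubiquitin ligase, fell 6.52-fold, to 3659.8, 2537 and 4179 from 19279.7, 18274 and 15883 in BSN and 26032, 27777 and 29312 in PTN. Cdkn1c, the cyclin-dependent kinase inhibitor p57, read 4132, 2586 and 2304 in HRG, 15686, 10006 and 12689 in BSN and 23836, 16049 and 15382 in PTN, a 5.16-fold fall (adjusted p = 4.27e-05). Tm4sf1, a small membrane protein, fell 6-fold (adjusted p = 4.14e-07), and the long non-coding RNA Lnc215 6.07-fold (adjusted p = 9.42e-06). Crym and Tcf7 complete the 13. Just outside were Map2, Mycn and Mdk.

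**Figure D2:**
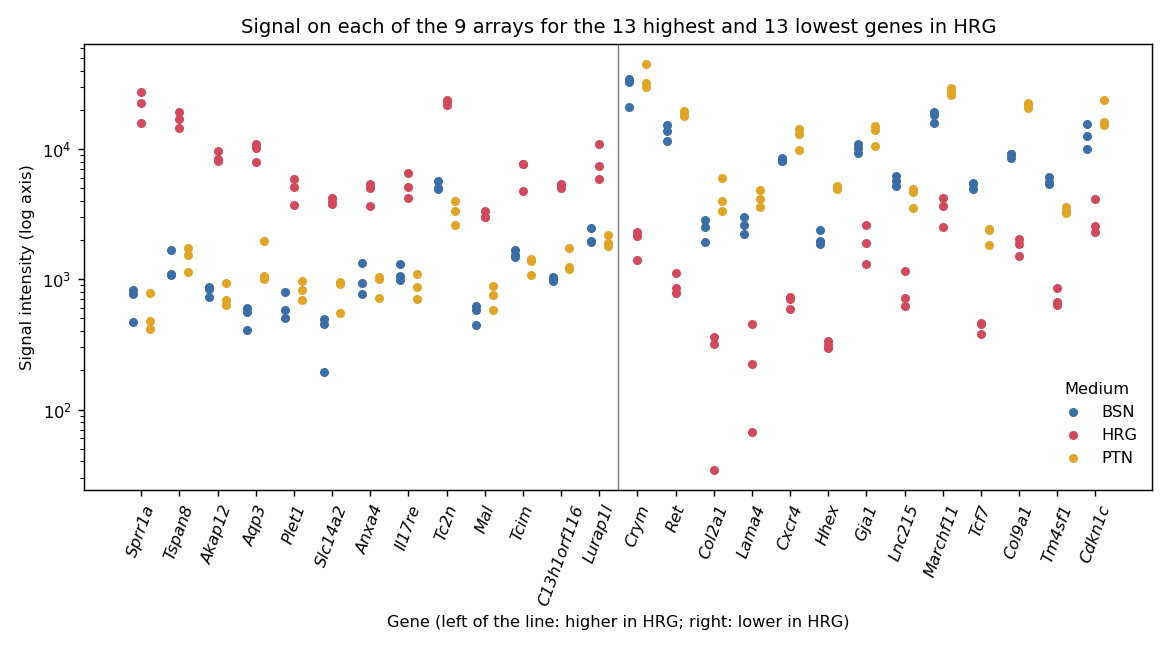
Signal of each array (log axis) is plotted for the 13 genes that rose and the 13 that fell furthest from their nearer medium among those above the median signal, with 1 point per array and a colour for each of the 3 media. The 3 HRG points of each gene lie outside the range of the other 6, as the rule that chose the genes required.

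Genes were also read by function, in lists that were assembled with earlier results of these data known, so that their counts are descriptions. Each gene is represented by its brightest probe set, and the median over all genes was 0.01. Over all genes 6.2% were called higher and 6.62% lower, and each count below is to be read beside these shares.

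Genes of the bud tip fell as a group. Of 5 on the array, 4 were lower (Ret, Gfra1, Cxcr4 and Mycn), all 4 against both media, and the median log2 difference was -2.63. Gfra1, the GDNF co-receptor, had mean signals of 2113 in HRG, 5916 in BSN and 5771 in PTN (adjusted p = 2.37e-05). Mycn, a proliferation-linked transcription factor of the tip, had 746 in HRG, 3120.2 in BSN and 6902 in PTN (adjusted p = 2.35e-06). Ros1, an orphan receptor tyrosine kinase, was not called at 611 in HRG, 1244 in BSN and 926 in PTN. Summed over the 5 genes, signals were 4500 to 5500 on the HRG arrays, 28766 to 34068 in BSN and 42113 to 47105 in PTN.

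Of 12 trunk and collecting duct genes, 4 were called higher (Aqp4, Aqp3, Slc14a2 and Scnn1b), none was called lower, and the median was 0.32. Of the 4, 3 passed against both media, and 2 were left with a 2-fold minimum. Differences were above 0 for 7 and below 0 for 5, among them Aqp2, which was below the mean of the media through its level in PTN. Aqp4, a basolateral water channel, had mean signals of 16880.1 in HRG, 4656 in BSN and 4769 in PTN, a 3.66-fold rise (adjusted p = 0.000136). The dimmer Aqp4 probe sets were not called (adjusted p = 0.0672 and 0.928). Scnn1b, a subunit of the epithelial sodium channel, had 2387 in HRG, 1277 in BSN and 1072 in PTN (adjusted p = 0.00347). The summed signals were 44447 to 49655 in HRG, 22474 to 27784 in BSN and 19530 to 20942 in PTN.

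Keratins and junction genes of simple epithelia were higher in 6 of 16 and lower in none, with a median of 0.49, and 3 of the 6 passed against both media. Krt19 had mean signals of 10622 in HRG, 2925 in BSN and 2181 in PTN, a 4.22-fold rise. Krt8, the partner of keratin 18, had 23543 in HRG, 19710.3 in BSN and 15014 in PTN (adjusted p = 0.0277). Dsc2, a desmosomal cadherin, rose 1.97-fold (adjusted p = 0.00111), and the desmosomal Dsp and Pkp2 and the tight junction gene Ocln were the others. Without BSN 1 or any single HRG array the count was 3. The epithelial nature of the cultures was plain in all media, with summed signals of these 16 genes of 246584 to 255350 in HRG, 209406 to 223208 in BSN and 165098 to 179421 in PTN.

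Of 11 urothelial and squamous genes 2 were higher, none was lower, and the median was 0.13. The called genes were Sprr1a and Pparg, a nuclear receptor of urothelial differentiation, which read 1633, 1726 and 1664 in HRG, 458, 445 and 777 in BSN and 669.7, 748 and 349.8 in PTN (adjusted p = 0.00266). The summed signal was 20783 to 32092 in HRG, 4894 to 6769 in BSN and 3304 to 4782 in PTN, most of it from Sprr1a in HRG, and 8 of the 11 were in the dim range in HRG. The keratins Krt5, Krt13, Krt14 and Krt20 were not called.

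Among 11 transcription factors of the duct lineage, 3 were higher and 1 lower. Klf5, a zinc finger factor of epithelia, rose 2.27-fold with means of 3436 in HRG, 1758 in BSN and 1311 in PTN (adjusted p = 0.00289), and Elf3 and Ehf, epithelial ETS factors, were higher too, Ehf in the dim range of every medium. Lhx1, a LIM homeobox factor needed for the nephric duct, fell 2.51-fold (adjusted p = 0.000174). Leaving out BSN 1, BSN 2, HRG 2 or PTN 3 reduced the 3 higher to 1. None of 8 Hox genes was called, and 7 of them were in the dim range in every medium.

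The Wnt pathway gave few calls, in both directions and not far from the shares over all genes (6.2% higher and 6.62% lower). Of 7 ligands, Wnt4 was higher and Wnt5b lower. Wnt5b, a ligand of non-canonical signalling, read 37.4, 34.9 and 30.5 in HRG, 642, 645 and 1029 in BSN and 715, 707 and 884 in PTN, so the HRG arrays were near 0 and BSN and PTN shared one range (adjusted p = 2.46e-06). Of 15 receptors and transducers 1 was lower, Lgr5, the R-spondin receptor (2-fold, adjusted p = 0.0316). It passed against PTN but not against BSN, and the call was lost without BSN 1, BSN 2, HRG 1 or HRG 3.

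Of 10 nuclear effectors and target genes, 1 was higher and 2 lower, all against both media; without PTN 1 or PTN 2, and with array weights, 2 were higher. Myc, which drives growth, read 1904, 2456 and 2515 in HRG, 1242, 626 and 718 in BSN and 1011, 519 and 702 in PTN, a 2.92-fold rise (adjusted p = 0.00248). Ccnd1, the G1 cyclin D1, fell 2.63-fold with means of 2661 in HRG, 6383 in BSN and 7791 in PTN (adjusted p = 8.96e-06). Myc and Ccnd1 are both textbook targets and moved in opposite directions, and Tcf7 was the other lower gene. Axin2, a feedback target, was not called at 531 in HRG, 548 in BSN and 261 in PTN (adjusted p = 0.607), nor was Ctnnb1, beta-catenin itself, at 43705 in HRG, 42179 in BSN and 43023 in PTN (adjusted p = 0.911). Tcf7l2, another TCF family member, was not called at 6783 in HRG, 4459.6 in BSN and 5911 in PTN (adjusted p = 0.0802).

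Among 9 secreted or membrane inhibitors of Wnt signalling, Sostdc1 was the only call. It also binds BMPs, and read 24174, 18095 and 23403 in HRG, 12344, 11277 and 10914 in BSN and 8821, 11964 and 13875 in PTN, a 1.9-fold rise (adjusted p = 0.00216).

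The receptors of the added ligands were next. Of 16 ErbB receptors, ligands and regulators, 1 was lower, where 6.62% of all genes were. Lrig1, which promotes loss of ErbB receptors from the cell, fell 2.09-fold with means of 1797 in HRG, 2355 in BSN and 6174 in PTN (adjusted p = 0.00281). It passed against PTN but not against BSN (adjusted p = 0.358), whose arrays overlapped those of HRG. PTN was also above BSN (adjusted p = 0.00191), and Lrig1 was not called with the 6 other arrays as 1 group (adjusted p = 0.184). Erbb2 stayed uncalled at 2755 in HRG, 2699 in BSN and 2584 in PTN (adjusted p = 0.843).

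Feedback genes of receptor tyrosine kinase and ERK signalling were lower in 4 of 11 and higher in none, with a median of -0.56; with array weights 7 were lower. Spry1, a Sprouty inhibitor that restrains Ret signalling in the bud, fell 3.06-fold with means of 4448 in HRG, 12757 in BSN and 14467 in PTN (adjusted p = 2.46e-06). Spry2, its relative, had 2298 in HRG, 3468 in BSN and 4966 in PTN (adjusted p = 0.00651), and Dusp6, an ERK phosphatase, 12169 in HRG, 26525 in BSN and 25549 in PTN (adjusted p = 0.000188). Of the 4, Spry1 and Dusp6 passed against both media and the others did not. The next brightest Dusp6 probe set was called lower too but did not pass against PTN (adjusted p = 0.154), and a dimmer one was not called. Fgfr4, an FGF receptor, was lower within the dim range of all media, a call lost without BSN 2, BSN 3, HRG 2, HRG 3 or PTN 3, and the early response gene Egr1 was not called (adjusted p = 0.0649).

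Of 36 BMP and TGF-beta genes 30 were not called, 4 were higher and 2 lower, where 6.2% and 6.62% of all genes were called. Grem1, a secreted BMP antagonist that permits ureteric branching, read 3886, 3208 and 4250.0 in HRG, 1149.6, 1490.2 and 1164 in BSN and 372, 655 and 1050.0 in PTN, a 4.14-fold rise (adjusted p = 0.000468). Bmp3, a ligand that opposes other BMPs, read 2689.7, 2232 and 1963 in HRG, 921, 730.1 and 1119 in BSN and 574, 613 and 789 in PTN, a 2.91-fold rise (adjusted p = 0.000276). Bambi, a decoy receptor, fell 2.14-fold and Smad5, a BMP signal transducer, 1.56-fold. Bambi did not pass against PTN (adjusted p = 0.0587). The receptor Acvr2a and the target gene Id2 were the other rises. Of the 4 rises, only Grem1 and Bmp3 passed against both media. Id2 did not pass against BSN (adjusted p = 0.232), and its dimmer probe set was not called. Without HRG 1 or HRG 2, 2 of the 4 rises were called.

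Notch, hedgehog and retinoic acid genes were counted in the same way, beside shares over all genes of 6.2% higher and 6.62% lower. Notch1 was the only call of 16 Notch genes, 1.41-fold lower (adjusted p = 0.0126), a call lost without HRG 1 or HRG 2. It passed against BSN but not against PTN (adjusted p = 0.158). Of 7 hedgehog genes the transducer Smo was 1.55-fold lower (adjusted p = 0.0154), and Gli2, a transcription factor of the pathway, was lower in the dim range (adjusted p = 0.00313); 1 of the pair was called without HRG 2 or HRG 3. Of 16 retinoic acid genes, Crabp2, a carrier that delivers retinoic acid to its receptors, rose 2.14-fold (adjusted p = 8.96e-05), while the receptor Rarb and the dehydrogenase Rdh10 were lower (adjusted p = 0.00789 and 0.042). Neither Rarb nor Rdh10 passed against BSN (adjusted p = 0.243 and 0.521). Rdh10 lost its call under 13 of the alternatives, among them the replicate number as a block (adjusted p = 0.0651) and each array left out except PTN 1.

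Of 12 thyroid hormone genes, Crym and Slc16a10 were lower and none was higher, though 1 was called higher without PTN 1 and 2 with array weights. Slc16a10, a transporter of aromatic amino acids and thyroid hormone, read 836, 805 and 547 in HRG, 2028, 2258 and 2573 in BSN and 1715, 1795 and 2096 in PTN, a 2.83-fold fall (adjusted p = 0.000152). HRG was again below all 6 other arrays.

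Of 24 tetraspanins, 3 were higher and 2 lower, where 6.2% and 6.62% of all genes were called. Tspan8 stood far ahead of Tspan1 (1.72-fold higher, adjusted p = 0.000341) and of Tspan6 (log2 0.42, adjusted p = 0.029). Tspan9 was 1.5-fold and Tspan5 1.35-fold lower (adjusted p = 0.0071 and 0.027). Without HRG 3 neither of the falls was called, and 1 was called without BSN 2, BSN 3 or HRG 2. With the replicate number as a block Tspan5 lost its call.

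Axon guidance and Eph genes, which also steer epithelia, were higher in 2 and lower in 6 of 34. Sema3c, a secreted semaphorin, read 11522, 12180.4 and 11808 in HRG, 6764, 6104 and 5649 in BSN and 7220.0, 8962 and 7075 in PTN, a 1.72-fold rise (adjusted p = 0.000603). Sema5a, a membrane semaphorin, read 512, 483 and 501 in HRG, 1857, 1839.9 and 1605 in BSN and 2764, 2352 and 2629.8 in PTN, the HRG arrays lying well below the rest (adjusted p = 2.46e-06). Efna5, Epha4, Ephb4, Sema6a and Slit1 were the other falls, Slit1 in the dim range of all media. Of the 6 falls, only Sema5a and Slit1 passed against both media. Efna5 and Epha4 did not pass against PTN (adjusted p = 0.346 and 0.21). The other Epha4 probe set was not called (adjusted p = 0.477). Without HRG 3, 3 of the 6 falls were called. The semaphorin receptor Plxna2 was higher (adjusted p = 0.042), and missed the threshold after quantile normalization (adjusted p = 0.0617) and without any of 6 arrays, BSN 1, BSN 2, PTN 3 or each HRG array, when the rises numbered 1.

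Matrix and integrin genes split, 4 higher and 3 lower of 29. Col18a1, a basement membrane collagen, rose 2.04-fold and Lama3, a laminin chain of hemidesmosomes, 1.65-fold (adjusted p = 0.00092 and 0.0433). Lama3 did not pass against BSN (adjusted p = 0.271), whose arrays overlapped those of HRG. Fn1, fibronectin, read 2864, 2656 and 2541 in HRG, 5357, 6398 and 5541 in BSN and 6481, 5484 and 5122 in PTN, a 2.12-fold fall (adjusted p = 7.56e-05). Lama1, a laminin chain of early epithelia, and Col9a1 were the other falls, and Col4a5 and Sparc the other rises. The count of rises was 1 without BSN 2, HRG 1 or HRG 3, and 2 without BSN 3, HRG 2, PTN 2 or PTN 3.

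**Figure D3:**
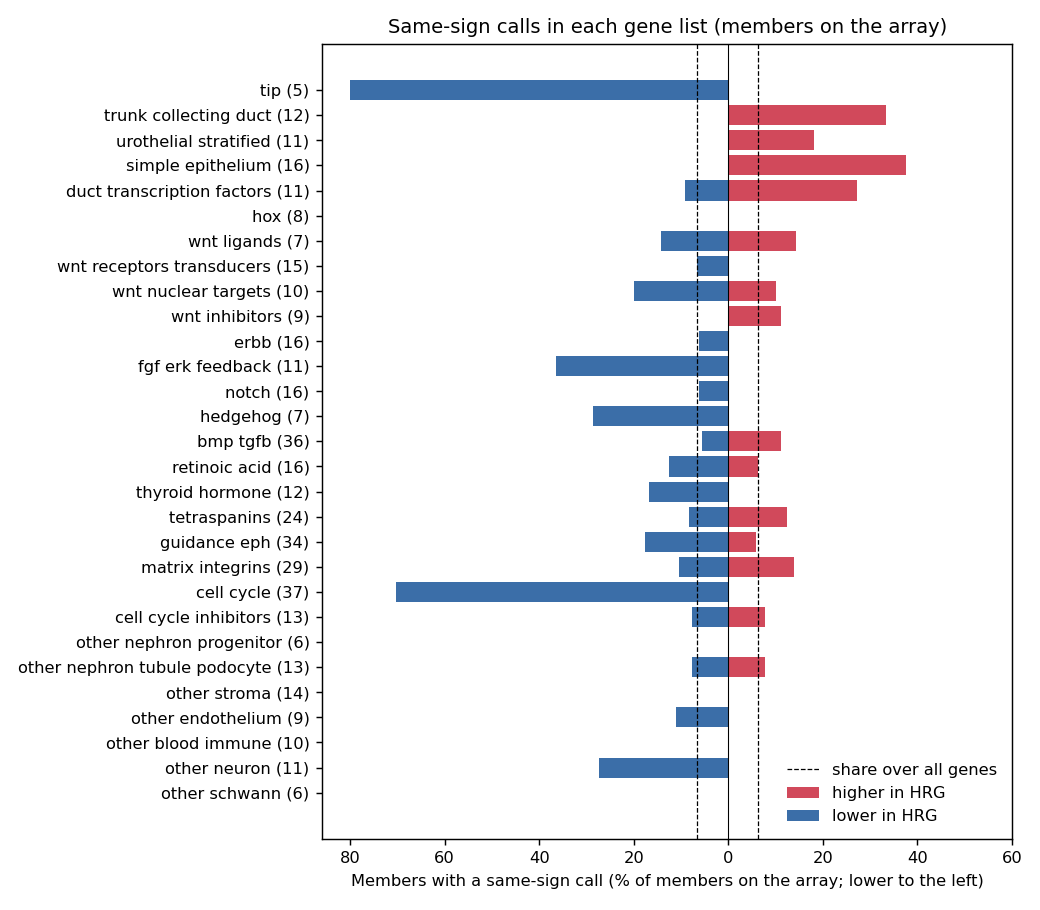
Bars give, for each list described here, the percent of its genes on the array (number in brackets) that were called higher in HRG (red, to the right) or lower (blue, to the left), and dashed lines the shares over all genes, 6.2% and 6.62%. Tip genes (4 of 5) and cell cycle genes (26 of 37) have the longest bars to the left and simple epithelium genes (6 of 16) the longest to the right.

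Cell cycle genes were the largest group to fall. Of 37, 26 were lower and none higher, 18 of them against both media, the median was -0.82, and 36 of the 37 differences were below 0. Top2a, a DNA topoisomerase of dividing cells, read 2926, 4214 and 3439 in HRG, 7765, 9295 and 8383 in BSN and 17458, 15962 and 17447 in PTN. It fell 3.42-fold (log2 -1.77 ± 0.12, adjusted p = 5.7e-06), and PTN exceeded BSN (adjusted p = 0.00139). Mcm6, a subunit of the replicative helicase, had mean signals of 3142 in HRG, 7449 in BSN and 13069 in PTN (adjusted p = 0.000156), and Bub1b, a spindle checkpoint kinase, 1259 in HRG, 2899 in BSN and 5545 in PTN (adjusted p = 0.000538).

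The proliferation marker Mki67 fell less, by 0.95 on the log2 scale, with means of 6514 in HRG, 11098 in BSN and 13429 in PTN (adjusted p = 0.00461). The 11 that were not called included Pcna, the replication clamp (adjusted p = 0.0744), Cdk4 (adjusted p = 0.0551) and Ccnd2 (adjusted p = 0.0707); Ccnd3, a D-type cyclin, was the single member above 0 (log2 0.39). Of the 37, 12 of the called genes were also higher in PTN than in BSN and none was lower. By group means these 12 ranked highest in PTN, then BSN, then HRG. Not all of them passed against BSN, as Ccnb1, cyclin B1, did not (adjusted p = 0.171) and its HRG arrays overlapped the others. Over all 37 the count higher in PTN was 12 as deposited, 12 after quantile normalization and 18 after median centring, and the calls lower in HRG numbered 26 and 28 under these scalings. At 2-fold or more, 10 of the 26 passed.

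**Figure D4:**
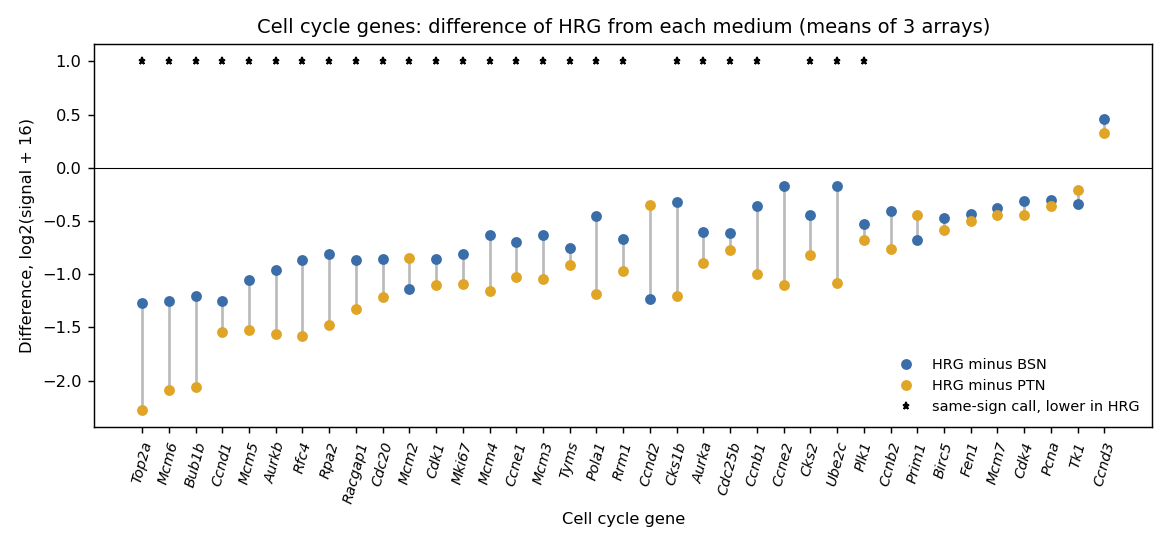
For each of the 37 cell cycle genes the points give the log2(signal + 16) difference HRG minus BSN (blue) and HRG minus PTN (yellow), from means of 3 arrays, joined by a line, and stars mark the 26 calls. All pairs of points lie below 0 except those of Ccnd3, and the PTN point is the lower one in most genes, Top2a, Mcm6 and Bub1b lying furthest down.

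Of 13 inhibitors of cyclin-dependent kinases and pocket proteins 1 was higher and 1 lower. Rb1, the retinoblastoma protein, read 5866, 5621 and 8406 in HRG, 1774, 1243 and 2000.4 in BSN and 3514, 3579 and 2905 in PTN, a 2.78-fold rise (adjusted p = 0.000274). Cdkn1c was the fall, described above.

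Markers of other cell types that a bud preparation could carry were mostly dim. All 6 nephron progenitor genes were below the 40th percentile in every medium, and none was called; summed signals were 1463 to 1738 in HRG, 1178 to 1869 in BSN and 980 to 1466 in PTN. None of 14 stromal genes was called (summed 5981 to 7478, 7901 to 8137 and 6622 to 7197, in the same order), none of 10 blood and immune genes (4856 to 5777, 5686 to 6726 and 4128 to 5757) and none of 6 Schwann cell genes (3047 to 3679, 3467 to 3829 and 2629 to 2965). Of 13 tubule and podocyte genes, Lrp2, the endocytic receptor megalin, was 2.77-fold higher and Synpo, an actin-associated protein of podocytes, 1.74-fold lower (summed 9085 to 10911, 8200 to 8816 and 7244 to 7589). Kdr, the VEGF receptor, was the single call of 9 endothelial genes, lower in the dim range (summed 3230 to 4007, 3284 to 3928 and 3329 to 3718).

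Neuronal genes were the exception, with 3 of 11 lower in HRG and none higher. Dcx, a microtubule-associated protein of young neurons, read 82.8, 39 and 51.4 in HRG, 1078, 1038 and 848 in BSN and 1252, 880.5 and 1236 in PTN (adjusted p = 2.95e-06), while its other probe set was dim in all groups. Map2, a microtubule protein, and Elavl4, an RNA-binding protein, were the others. The summed signal was 7680 to 8664 in HRG, 13136 to 14279 in BSN and 10664 to 12863 in PTN. The part of non-epithelial cells in the falls of HRG was not tested.

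BSN and PTN were themselves unlike. As deposited, PTN against BSN gave 2044 calls (12.9%), more than HRG against their mean (11.4%). After quantile normalization the order turned. HRG against the mean then gave 891 higher and 961 lower calls, and PTN against BSN 850 and 848. Median centring kept the deposited order, with 761 and 882 for HRG and 1350 and 586 for PTN against BSN. Within the 1766 calls of HRG, 547 also differed between PTN and BSN, which is 31%, with 271 higher and 276 lower in PTN. The split depends on scaling: over all probe sets PTN was higher in 803 and lower in 1241 as deposited, 850 and 848 after quantile normalization, and 1350 and 586 with each array centred on its median. Leaving out single arrays moved the 271 to 149 without BSN 1, 172 without BSN 2, 142 without BSN 3 and 158 without PTN 3. The 276 became 181 without BSN 1, 183 without BSN 2, 173 without HRG 3 and 415 without PTN 1.

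HRG lay between the media, past the threshold on both sides, for 33 probe sets (0.208%), of which 27 were above PTN and below BSN and 6 above BSN and below PTN. Dusp2, a MAP kinase phosphatase, had mean signals of 2142 in HRG, 5831 in BSN and 556 in PTN. Bcat1, an aminotransferase of branched-chain amino acids, had 2833 in HRG, 6899 in BSN and 1242 in PTN, and Mmp2, a matrix metalloproteinase, 8186 in HRG, 17665 in BSN and 4761 in PTN. For these the mean of BSN and PTN is a value that neither medium had.

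Grouping by the sample descriptions, BSN against the mean of HRG and PTN, gave 1449 calls (9.13%), 893 higher and 556 lower in BSN. Centring each array on its median turned that split to 484 higher and 930 lower. The groupings share all 9 arrays, and neither count bears on which buds branched, which the arrays did not record.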

How the data were processed

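Per the labels, RNA of 3 pooled buds per sample was purified with PicoPure, amplified by double in vitro transcription with MessageAmp, labelled with biotin and read on 9 Affymetrix rat arrays. The authors deposited one GCOS signal intensity per probe set on a linear scale. The submitters' processing notes name GCOS; no version or setting is given in the sources used here. After trimming 2% at each end, array means lay near 2500.5, so no further scaling was applied. Detection calls were not used here.

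Of 15923 probe sets, 57 controls were left out. The platform's annotation gave 1 symbol to 12789, several to 312 and none to 2822; symbols were updated from RefSeq (12754 by Entrez ID). Signals were taken as log2(signal + 16) and fitted over all 9 arrays with limma 3.58.1 (lmFit, contrasts.fit, eBayes with intensity trend) in R 4.3.3, with 6 residual degrees of freedom, 10.8 after moderation, and the number of arrays limits the precision. The design text calls the arrays of a medium biological replicates. The fit was tested on simulated data. Figures used Python 3.11.15 and matplotlib 3.10.9.

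The contrast, the markers and the gene lists were chosen with earlier results of these data known. Genes were named by a rule: the 13 largest same-direction calls each way with a mean above the median and no overlap between HRG and the other arrays, leaving out provisional names; Crym, Tcf7, Wnt4 and Tspan8; up to 2 higher and 2 lower calls per list; and up to 4 each way of those lying between the media. One gene list is not reported here. Other list members complete counts or were chosen after their values were seen. Alternatives were quantile normalization, median centring, pseudocounts 1 and 64, filters at the 40th and 60th percentile, no trend, array weights, the replicate block, each array left out, an adjusted p of 0.01, a 2-fold minimum, and the 6 other arrays as 1 group.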

Additional observations from a re-analysis of the deposited data

Results flagged for a closer look

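HRG lay between the media past the threshold on both sides for 33 probe sets, and 8 genes of them were named by the rule of up to 4 each way. PTN minus BSN is the sum of the differences that chose these genes, so its size is given as a description with no test. PTN was higher, with HRG between, for Sppl3 (PTN minus BSN log2 1.27), Arrdc4 (1.32), Laptm4a (1.10) and Tent4b (0.87). BSN was higher, with HRG between, for Dusp2 (-3.36, with PTN in the dim range, so that the size depends on the added 16), Bcat1 (-2.45), Gstp1, a glutathione transferase (-2.03), and Mmp2 (-1.89). The 2-fold minimum was not among the refits of these genes. In the refits that kept BSN and PTN apart, the first 4 genes lost the place of HRG between the media under several alternatives. The last 4 genes kept it in all of these refits. For Mmp2, however, HRG was 1.71-fold above PTN, which is under the 2-fold minimum.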

How the results depend on the processing

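Of 74 named genes refitted 1465 times, 1387 refits kept call and direction, 78 lost the call and none reversed. The 2-fold minimum was not among these refits, and several named genes, such as Tspan1 and Sema3c (both 1.72-fold), lie under it. In the refits made, 61 genes never lost the call. The others included Ehf, Fgfr4, Lama3, Lgr5, Lrig1, Notch1, Plxna2, Rarb, Rdh10, Smo, Tspan5 and Tspan9. Counts of calls are given as higher/lower in HRG. An adjusted p of 0.01 left 435/505 against the mean of the media, 430/499 of the same sign, 181/211 against both media, 0/8 between the media (above BSN/above PTN), 80/99 that differed between PTN and BSN (higher/lower in PTN), and 364/199 for BSN against the mean of HRG and PTN (higher/lower in BSN). A 2-fold minimum left, in that order, 240/349, 239/345, 137/177, 0/3, 100/91 and 273/90. With the 6 other arrays as 1 group the first 2 counts were both 422/467. Array weights gave 20/59 between the media, 410/447 between PTN and BSN and 1653/993 for BSN; median centring gave 19/9 between the media, 167 lower in PTN and 484/930 for BSN; no trend gave 0/11, 140 higher in PTN and 330 lower in BSN; and a filter at the 60th percentile gave 13/44 between the media. The other alternatives with all 9 arrays left these counts within 1.5 times; the causes were not tested.

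Leaving out single arrays gave 518 to 1151 higher and 591 to 1098 lower against the mean, 510 to 1105 and 581 to 1053 of the same sign, 231 to 429 and 287 to 481 against both media, 0 to 17 above BSN and 8 to 59 above PTN between the media, 142 to 352 higher and 173 to 415 lower in PTN, and 435 to 1486 higher and 246 to 923 lower in BSN. The lowest numbers against both media (231 higher) came without HRG 1 and without HRG 3.

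Deviations of same-numbered arrays from their group means correlated at 0.266, 0.332 and 0.118 between HRG and PTN (other numbers -0.255 to 0.029). Between BSN and HRG the values were -0.055, 0.13 and 0.091 (other numbers -0.243 to 0.138). Between BSN and PTN they were -0.097, -0.011 and -0.064 (other numbers -0.167 to 0.191). Equal numbers may pair HRG with PTN, a hint the data give and no label states, but not BSN. The fit over all 3 media was therefore kept without a block. A pairing of BSN under other numbers was not tested, as the block refit used the numbers of the labels. With the replicate number as a block 839 higher and 906 lower calls were found, of which 778 and 840 were shared; of the named genes Rdh10 and Tspan5 lost their call. Signals below the 40th percentile limit what can be said of fold size: 121 of 5715 probe sets below it in every medium were called.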
